A study of Mus musculus with 8 samples.

Results

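The 10 genes described here set or respond to the pace of the G1 phase of the cell cycle. They are the MYC factors Myc and Mycn, the D cyclins Ccnd1, Ccnd2 and Ccnd3, the E cyclin Ccne1, and the cyclin-dependent kinase (CDK) inhibitors Cdkn1a, Cdkn1b, Cdkn2a and Cdkn2b. They were chosen by name, and each symbol matched 1 of the 37620 genes in the count tables through the GENCODE annotation of the NCBIM37 mouse genome. All 10 passed the filter on low counts (at least 10 counts in at least 2 libraries), which left 16961 genes in all. Their levels were followed through 8 RNA-seq libraries from a study of how combinations of signals hold mouse embryonic stem cells (mESCs) in pluripotency or release them from it.

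Of these libraries, 7 came from the R1 mESC line. mESCs were grown without feeders in serum-containing medium, and every mESC group received 3 µM CHIR99021, which inhibits GSK3, and 1 µM PD0325901, which inhibits MEK. This pair of compounds is called 2i and was sampled on day 5 (1 library). 2iJ added 2 µM of a JAK inhibitor, which blocks the signal from LIF, and was also sampled on day 5 (1 library). 2iJ+B-A further added 10 ng/ml BMP4 and 10 µM of an inhibitor of ALK5, a receptor of the TGF-beta family, and was sampled on days 2, 5 and 11 (1 library a day). Sorted Cdx2-GFP-positive cells came from a separate line with a fluorescent reporter of Cdx2, after 2 days in 2iJ+B-A (1 library), so cell line and sort cannot be told apart in that library. Mesoderm progenitors were differentiated through embryoid bodies in another medium and collected on days 3 and 4 (1 library a day). From day 2 this medium also held Wnt3a, Activin A and BMP4, the last at a lower dose than in 2iJ+B-A. An inhibitor of Wnt secretion was present for the day before the later collection, so that day and treatment cannot be told apart between these 2 libraries. Mesoderm progenitors and 2iJ+B-A thus differ in several added signals as well as in cell type, and the part of each was not tested.

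MYC and MYCN are closely related transcription factors that pair with MAX and raise the expression of genes for growth, nucleotide synthesis and ribosome production. D cyclins activate CDK4 and CDK6, and E cyclins activate CDK2. These kinases phosphorylate the RB family of proteins, which then release E2F factors to switch on genes of DNA replication. The Cip/Kip inhibitors p21 (Cdkn1a) and p27 (Cdkn1b) act mainly on cyclin E-CDK2, while the INK4 proteins p16 (Cdkn2a) and p15 (Cdkn2b) bind CDK4 and CDK6. mESCs are known for a short G1 phase, and GSK3 and MEK, both inhibited here, are known to act on the stability of MYC and on transcription of Ccnd1, respectively.

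Total gene counts were between 19810855 (sorted cells) and 31453888 (2iJ+B-A, day 5), and 3 counts corresponded to between 0.0954 and 0.1514 CPM (counts per 1000000 gene counts), the unit in which levels are given. The sorted library stood apart, with 29.7% of read pairs unmapped against 2.165% to 3.85% in the other 7. Pairs not counted to a gene for any reason made up 54.5% there and 19.9% to 26.1% in the others. The part of this library quality in the levels given for the sorted cells, high or low, was not tested. Labels were checked against marker lists. The 8 mesoderm markers summed to 1753 and 601 CPM in the mesoderm progenitors and to between 11.7 and 59.3 CPM in the other libraries, while 8 pluripotency markers summed to between 3006 and 4696 CPM in the unsorted mESCs, 2062 in the sorted cells, and 1276 (day 3) and 127 (day 4) in the mesoderm progenitors. Cdx2 itself was at 234.5 CPM in the sorted library and at 15.0 CPM in the unsorted cells of the same day. The list of 6 fibroblast markers, all detected in the sorted library, summed to 103.2 CPM there and to between 8.53 and 15.9 CPM elsewhere, and the part of this difference in the values given for the sorted library was not tested. RNA came from whole populations, so that fewer cells of a type and less RNA per cell cannot be told apart.

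Levels of the 10 genes differed widely in how much they moved. From the lowest to the highest library, the CPM of Ccnd2 differed 51.4-fold, that of Cdkn2b 10.9-fold, that of Cdkn1a 6.04-fold and that of Myc 4.602-fold. For Ccnd1, Cdkn1b and Ccne1 it was 3.79-fold, 3.44-fold and 3.28-fold, and for Mycn, Ccnd3 and Cdkn2a 2.32-fold, 2.00-fold and 1.94-fold. On the log2 scale the range over the 8 libraries was wider for Ccnd2 than for 87.5% of all genes tested, and for Cdkn2a wider than for 22.6% of them. The median gene had a range of 1.91 on this scale. The ranges of Mycn, Ccnd3, Ccne1, Cdkn1b and Cdkn2a were below that median.

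**Figure D1:**
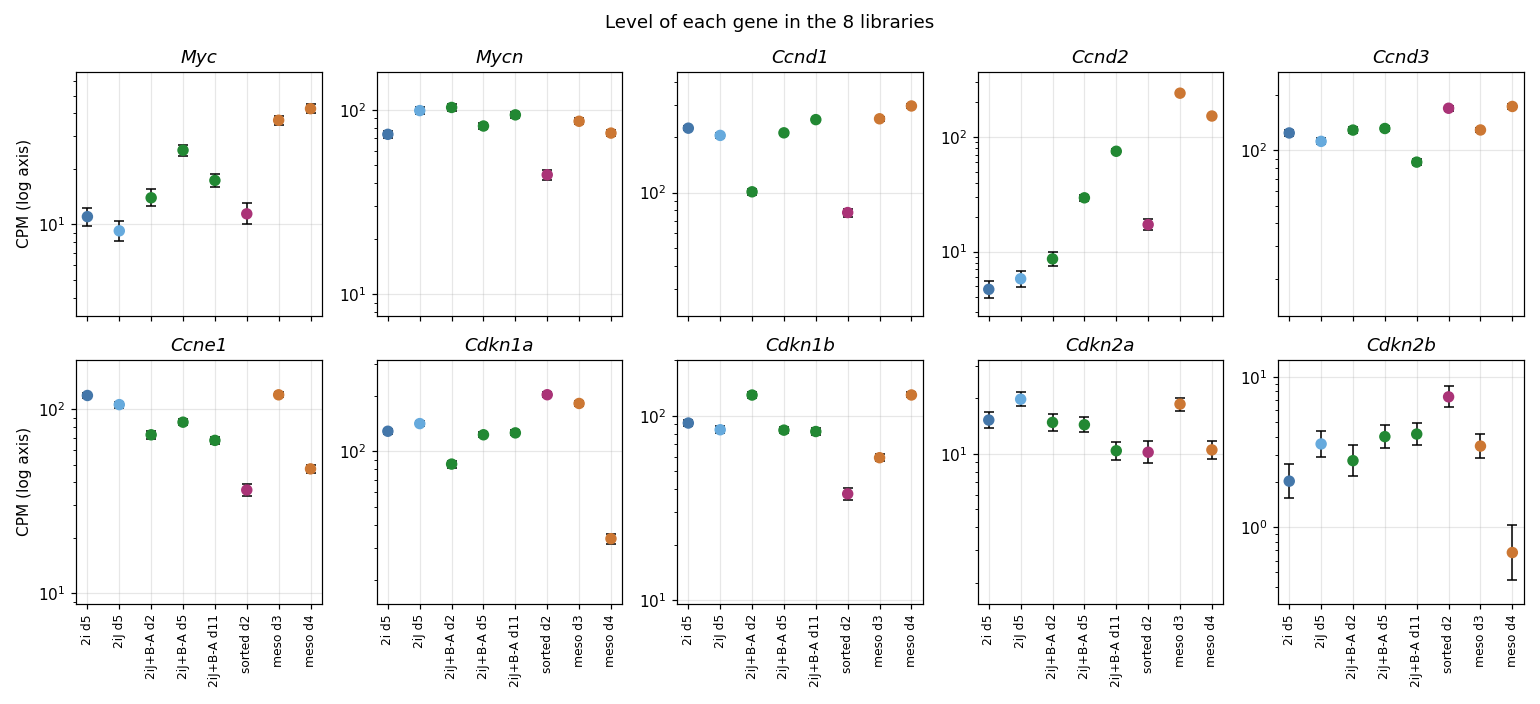
CPM of each gene (log axis) in the 8 libraries, coloured by group. Points are single libraries and bars are 95% Wilson intervals, which cover counting error only. Ccnd2 spans 4.69 CPM in 2i to 241.1 CPM in mesoderm progenitors of day 3, and Cdkn1a spans 33.7 CPM in those of day 4 to 203.2 CPM in the sorted cells.

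Myc (ENSMUSG00000022346; chr15:61816946-61821929, plus strand) was lowest in 2iJ, at 9.22 CPM (Wilson interval 8.12 to 10.5), and stood at 11.01 CPM in 2i. In 2iJ+B-A it was at 13.9, 25.2 and 17.3 CPM on days 2, 5 and 11, and in the sorted cells at 11.4 CPM. Mesoderm progenitors had 36.7 CPM (day 3) and 42.4 CPM (day 4). The 2 mesoderm values were thus above every mESC value, and the 3 values of 2iJ+B-A were above those of 2i and 2iJ. The intervals of 2iJ and 2i overlapped, as did those of 2i and the sorted cells, and of the sorted cells and day 2 of 2iJ+B-A.

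Myc was the one gene of the 10 called between mesoderm progenitors (39.6 ± 4.05 CPM, SD, n = 2) and 2iJ+B-A (18.8 ± 5.80, n = 3). It was higher by 1.09 on the log2 scale (SE 0.291), which is 2.13-fold, with an edgeR adjusted p-value of 0.0372. In this comparison 27% of all genes tested were called, 11.5% as higher, so that 1 of 10 is no more than the background share. The call was not stable when single libraries were left out. The edgeR adjusted p-value was 0.0815 without day 2 of 2iJ+B-A, 0.0978 without day 11 and 0.0974 without day 4 of the mesoderm progenitors, although the log2 fold change remained between 0.92 and 1.37. Against 2iJ, the 2iJ+B-A group had a log2 difference of 0.96 in Myc (95% interval -0.0012 to 1.92), with an edgeR adjusted p-value of 0.655.

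Mycn (ENSMUSG00000037169; chr12:12942902-12948720, minus strand) was expressed at a higher and steadier level. It was at 73.6 CPM in 2i and 99.0 CPM in 2iJ, at 102.9, 81.6 and 93.8 CPM on days 2, 5 and 11 of 2iJ+B-A, and at 86.6 and 74.7 CPM on days 3 and 4 of the mesoderm progenitors. The sorted cells, at 44.4 CPM (41.5 to 47.4), were below every other library. Against 2iJ+B-A (92.8 ± 10.7 CPM, n = 3) the sorted cells differed by -1.02 on the log2 scale (SE 0.237), with p-values of 0.00444 before and 0.0603 after adjustment in edgeR, which missed the threshold of 0.05. DESeq2 gave an adjusted p-value of 0.00472 for the same difference. Mesoderm progenitors differed from 2iJ+B-A by -0.19 in Mycn, with a 95% interval of -0.62 to 0.23.

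To compare the 2 factors with each other, CPM was divided by exon length. Per kilobase, Mycn made up 84.6% of the sum of both in 2i, 89.9% in 2iJ, 85.9%, 72.7% and 81.7% on days 2, 5 and 11 of 2iJ+B-A, and 76.2% in the sorted cells. In the mesoderm progenitors it made up 66.1% on day 3 and 59.2% on day 4. Mycn was therefore the more abundant transcript in all 8 libraries, and its share in the mesoderm progenitors (62.6 ± 4.83%, n = 2) lay below every mESC value. The sum itself was between 26.4 and 39.8 CPM per kilobase in 7 libraries and 17.7 in the sorted cells, where both factors were below all 3 values of 2iJ+B-A.

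Partners and targets of MYC were examined as lists. Of 10 partners and antagonists (the MAX network and its cofactors), 1 was higher and 1 lower in mesoderm progenitors than in 2iJ+B-A. These were Mxd4 (log2 fold change 1.49, edgeR adjusted p-value 0.0388) and Mxi1 (-1.55, 0.0183), both of which code for MAX-binding proteins that oppose MYC. This is 2 of 10 where 27% of all genes were called, and each of the 2 was called in 2 of 5 fits that left out a library. Zbtb17, which encodes MIZ1, through which MYC represses genes, was the one list member called in the sorted cells (1.4997, edgeR adjusted p-value 0.0251), where 5.42% of all genes were called. Of 16 well-known target genes of MYC, Cdk4 was called higher in mesoderm progenitors (0.74, edgeR adjusted p-value 0.00967) and 0 were called lower, also a smaller share than the 27% of all genes. Cdk4 was called in 5 of 5 fits that left out a library. The median of the list was -0.07 in that comparison and -0.49 in the sorted cells, where 0 of 16 were called, against medians over all genes of -0.03 and -0.08. Summed over the list, the targets stood at 19069 CPM in 2i, 17867 in 2iJ, between 13590 and 16179 in 2iJ+B-A, 15629 and 12751 in the mesoderm progenitors, and 10073 in the sorted cells. The order of this sum did not follow that of Myc, which was near its lowest in 2i and 2iJ. It did not follow that of Mycn either, though Mycn and the sum were both lowest in the sorted cells. The sum leans on a few abundant genes, such as Ncl (6178.5 CPM in 2i) and Npm1 (5082.9 CPM in 2i).

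A list of 8 genes for the turnover of MYC and cyclin proteins was also followed. In mesoderm progenitors 2 were higher and 2 lower than in 2iJ+B-A, which is 4 of 8 where 27% of all genes were called. The examples with the largest change were Usp28, which encodes a deubiquitinase that stabilises MYC (-1.48, edgeR adjusted p-value 0.00868), Cul4a, a scaffold of ubiquitin ligases (1.08, 0.0054), and Fbxw7, which marks MYC and cyclin E for destruction (-0.55, 0.0494). With single libraries left out, Usp28 and Cul4a were called in 5 of 5 fits, and Fbxw7 and Cul1 in 0 of 5. Usp28 was also lower in the sorted cells than in 2iJ+B-A (-1.92, edgeR adjusted p-value 0.0324). Both comparisons share the 3 libraries of 2iJ+B-A. The sorted group is 1 library whose spread is taken from the other groups. Its calls of Usp28, Zbtb17, Cdkn2c, Mcm3, Mcm5 and Cdx2 were each lost in 3 of 3 fits that left out a library of 2iJ+B-A, in which 37 to 117 genes were called in place of 919.

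Among the D cyclins, Ccnd2 (ENSMUSG00000000184; chr6:127075797-127101066, minus strand) varied most. It was at 4.69 CPM (3.96 to 5.56) in 2i and 5.80 CPM (4.94 to 6.81) in 2iJ. In 2iJ+B-A it was at 8.64, then 29.5 and then 75.1 CPM over days 2, 5 and 11. The sorted cells of day 2 had 17.2 CPM, and mesoderm progenitors 241.1 (day 3) and 152.4 CPM (day 4). All values of 2iJ+B-A were above those of 2i and 2iJ, both values of the mesoderm progenitors were above all others, and 6 of the 7 neighbouring pairs in this order had intervals that did not overlap.

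The steps of Ccnd2 over days were tested with a slope on log2(day) in 2iJ+B-A. The fitted level multiplied by 2.39 for each doubling of the day (log2 slope 1.26, SE 0.157), and the unadjusted p-value of 0.000453 ranked 6 among 16961 genes. After adjustment edgeR called 0 genes (0% of those tested, with 1004 under an unadjusted 0.05, and 113 called by DESeq2), and the adjusted p-value of Ccnd2 was 0.827. DESeq2 gave 2.81e-08 for Ccnd2. With either library of the mesoderm progenitors left out of the joint fit, Ccnd2 passed in edgeR. The residual error of such a fit comes only from how far the days of 2iJ+B-A lie from a line. Ccnd2 did not pass when a day of 2iJ+B-A was left out, where the slope joins the remaining days exactly. The slope itself stayed between 1.21 and 1.28 in all of these fits. Markers of primitive endoderm moved along the same days, with 6 of 6 detected at each and sums of 29.2, 54.5 and 205.5 CPM, and their part in the values of Ccnd2 was not tested. On day 11 Gata4 was at 72.8 CPM, Sox17 at 24.1 CPM and Gata6 at 16.0 CPM.

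Ccnd2 did not pass in the group comparisons, where the days of 2iJ+B-A form the spread. Mesoderm progenitors (196.7 ± 62.7 CPM, n = 2) were above 2iJ+B-A (37.7 ± 34.0, n = 3) by 2.39 on the log2 scale (SE 0.770), with an edgeR adjusted p-value of 0.0633. It was called without the filter on low counts (0.0309), with day 11 of 2iJ+B-A left out (0.0223), and against the average of the 3 unsorted mESC groups (log2 difference 4.25, edgeR adjusted p-value 0.0102). The difference of 2iJ+B-A from 2iJ was 2.64 (95% interval -0.20 to 5.47), with an edgeR adjusted p-value of 0.685. The sorted cells had a fitted log2 difference of -1.08 from 2iJ+B-A, yet they were 1.99-fold above the unsorted library of the same day. When the fit was compared at day 2, the log2 difference became 1.00.

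Ccnd1 (ENSMUSG00000070348; chr7:152115836-152125774, minus strand) is a known target of ERK and of Wnt signalling. It was at 223.5 CPM in 2i and 204.2 CPM in 2iJ. In 2iJ+B-A it stood at 100.9, 210.9 and 248.7 CPM over days 2, 5 and 11, and in mesoderm progenitors at 251.3 and 294.9 CPM on days 3 and 4. The sorted cells had the lowest level, 77.9 CPM (74.1 to 81.9). The 2 libraries taken after 2 days in 2iJ+B-A, sorted and unsorted, were thus the lowest of the 8, while the intervals of day 5 of 2iJ+B-A and of 2iJ overlapped.

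The slope of Ccnd1 over days was 0.53 for each doubling (SE 0.117), ranked 109 by its unadjusted p-value of 0.00609, and reached 0.827 after adjustment in edgeR. It was called by DESeq2 (adjusted p-value 0.0405) and, with the same limit as for Ccnd2, in edgeR without either mesoderm library. The slope fell to 0.24 when day 2 was left out. The sorted cells differed from 2iJ+B-A (186.8 ± 76.8 CPM, n = 3) by -1.21 (95% interval -2.38 to -0.033), with an edgeR adjusted p-value of 0.176. Mesoderm progenitors differed from 2iJ+B-A by 0.56 (interval -0.28 to 1.42), although their 2 values were above all 3. The gene Oraov1 overlaps Ccnd1 on the other strand, and counting without regard to strand gave between 80.2% and 87.9% of the level of Ccnd1.

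Ccnd3 (ENSMUSG00000034165; chr17:47642000-47736632, plus strand) varied least among the D cyclins. It was at 123.9 CPM in 2i, 111.5 in 2iJ, 128.4, 131.0 and 86.1 CPM on days 2, 5 and 11 of 2iJ+B-A, and 168.7 CPM in the sorted cells. In mesoderm progenitors it was at 128.6 (day 3) and 172.5 CPM (day 4). The mesoderm progenitors overlapped with 2iJ+B-A, and 2iJ+B-A with 2i and 2iJ, while the sorted cells were above all 5 unsorted mESC libraries. The intervals of 4 of the 7 neighbouring pairs overlapped, and 0 of the 4 tests called Ccnd3 (lowest edgeR adjusted p-value 0.244, in the sorted cells). Unstranded counting gave between 66.1% and 74.4% of these levels. Bysl overlaps Ccnd3 on the other strand, and its part in this difference was not tested.

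The make-up of the D cyclin pool was compared per kilobase of exon. Ccnd1 and Ccnd3 held similar shares in 2i (51.1% and 48.2%) and in 2iJ (51.3% and 47.7%), with Ccnd2 at 0.721% and 0.981%. With unstranded counts Ccnd1 and Ccnd3 stood further apart, at 55.95% and 43.1% in 2i and 55.5% and 43.3% in 2iJ. On day 2 of 2iJ+B-A the share of Ccnd3 was 67.2% and that of Ccnd1 31.04%, and in the sorted cells these shares were 76.2% and 20.7%. By day 11 Ccnd1 held 55.8%, Ccnd3 32.9% and Ccnd2 11.3%. Mesoderm progenitors had another make-up, in which Ccnd2 held 25.7% on day 3 and 14.8% on day 4. The summed level was 164.9 and 180.1 CPM per kilobase in the mesoderm progenitors and between 84.8 and 118.2 in the mESC libraries, sorted cells included.

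**Figure D2:**
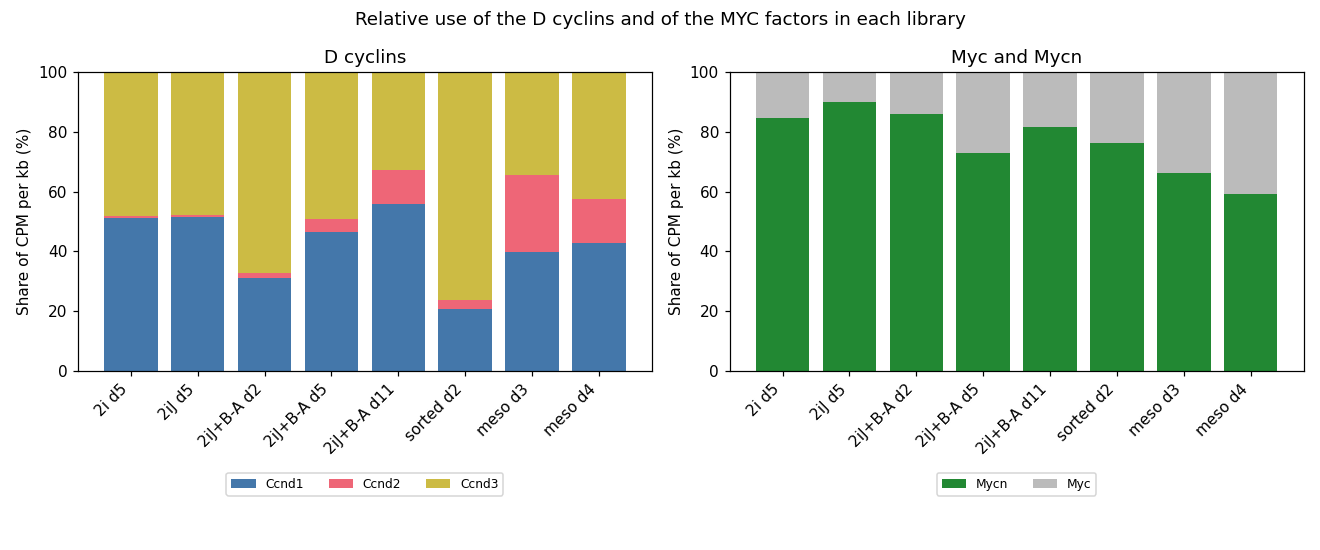
Share of each D cyclin in the sum of Ccnd1, Ccnd2 and Ccnd3 (left) and of Mycn and Myc in their sum (right), in percent of CPM per kilobase of exon, 1 bar per library without replicates. Ccnd3 leads in the libraries of day 2 in 2iJ+B-A (67.2% unsorted, 76.2% sorted), Ccnd2 reaches 25.7% in the mesoderm progenitors of day 3, and Mycn exceeds Myc in every bar.

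Ccne1 (ENSMUSG00000002068; chr7:38883003-38892553, minus strand), which encodes cyclin E1, was at 118.5 CPM in 2i and 105.7 CPM in 2iJ. It was at 72.5, 84.9 and 67.6 CPM in 2iJ+B-A, below both, and at 36.4 CPM (33.8 to 39.1) in the sorted cells, below every other library. Mesoderm progenitors spanned nearly the whole range, from 119.5 (day 3) down to 47.4 CPM (day 4). Their log2 difference from 2iJ+B-A was 0.16 (interval -0.71 to 1.03), and its sign depended on which of the 2 days was kept. It was 0.72 with day 3 alone (edgeR adjusted p-value 0.0464, the lone library being assumed to vary like the other groups) and -0.59 with day 4 alone (0.0851). The sorted cells differed from 2iJ+B-A by -0.99 (SE 0.491, edgeR adjusted p-value 0.248). This difference was called in a fit of those 2 groups only (0.0417) and when either mesoderm library was left out (0.0392 and 0.0359).

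Around cyclin E1, 12 other cyclins and CDKs were tested. In mesoderm progenitors 2 were higher than in 2iJ+B-A and 0 lower. Ccne2, the other E cyclin, was higher by 1.29 (edgeR adjusted p-value 0.0122), at 63.0 and 44.8 CPM against 18.8 to 26.2 CPM. Cdk4, the kinase partner of the D cyclins, stood at 547.3 and 554.1 CPM against 325.9 to 338.8 CPM. These are 2 of 12 where 27% of all genes were called, and both genes were called in 5 of 5 fits that left out a library. Both had 0 calls in the other 3 tests.

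Downstream of these kinases, 4 of 13 RB and E2F genes were higher and 2 lower in mesoderm progenitors than in 2iJ+B-A, with a median of 0.51 (-0.03 for all genes, of which 27% were called). Those with the largest change were E2f6 (1.37, edgeR adjusted p-value 0.00434) and E2f7 (1.23, 0.00634), which code for repressors, and Rbl2 (-1.32, 0.0267), which encodes the RB relative p130. E2f6 and E2f7 were called in 5 of 5 fits that left out a library, and Rbl2 in 1 of 5. Of 16 genes of S phase and mitosis, 1 was higher (Mki67, 0.97, edgeR adjusted p-value 0.0182) and 3 were lower (Mcm3, Mcm6 and Cdt1, between -0.56 and -0.54), a share near the 27% of all genes. These 3 were called in 0 of 5 fits that left out a library, and Mki67 in 4 of 5. In the sorted cells 2 of these 16 were lower and 0 higher (5.42% of all genes were called), Mcm5 (-1.33, edgeR adjusted p-value 0.0323) and Mcm3 (-1.14, 0.0349), both parts of the replicative helicase. The list summed to 3105 CPM there and to between 5014 and 6329 CPM in the other libraries, and its median log2 fold change was -0.65. The part of the quality of the sorted library in these values was not tested.

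The Cip/Kip inhibitors Cdkn1a and Cdkn1b took opposite places in the libraries where they were highest or lowest. Cdkn1a (ENSMUSG00000023067; chr17:29227924-29237667, plus strand) is a classical target of p53. It was at 128.8 CPM in 2i and 141.7 CPM in 2iJ, and at 85.4, 123.2 and 126.2 CPM on days 2, 5 and 11 of 2iJ+B-A. The sorted cells held the highest level, 203.2 CPM (197.0 to 209.6). Mesoderm progenitors went from 182.2 CPM on day 3 to 33.7 CPM (31.7 to 35.8) on day 4, so that these 2 libraries of 1 group took the second highest and the lowest places of all 8.

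Cdkn1b (ENSMUSG00000003031; chr6:134870419-134875531, plus strand) encodes p27, which also restrains cyclin E-CDK2. It was highest on day 4 of the mesoderm progenitors, at 129.7 CPM, and on day 2 of 2iJ+B-A, at 129.6 CPM. It was at 91.3 CPM in 2i, 84.0 in 2iJ, and 83.6 and 82.2 CPM on days 5 and 11 of 2iJ+B-A. The lowest values were those of the mesoderm progenitors on day 3, 59.2 CPM, and of the sorted cells, 37.7 CPM (35.1 to 40.5). The 2 libraries with the most Cdkn1b were thus the 2 with the least Cdkn1a, and those with the least Cdkn1b had the most Cdkn1a. Per kilobase, the ratio of Cdkn1a to Cdkn1b was 11.04 in the sorted cells and 6.30 on day 3 of the mesoderm progenitors, between 2.89 and 3.45 in 2i, 2iJ and days 5 and 11 of 2iJ+B-A, and 1.35 on day 2 of 2iJ+B-A and 0.531 on day 4 of the mesoderm progenitors.

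Neither gene was called in any of the 4 tests. In the sorted cells Cdkn1b differed from 2iJ+B-A (98.4 ± 27.0 CPM, n = 3) by -1.34 (SE 0.527, unadjusted p-value 0.0416, edgeR adjusted p-value 0.167), and Cdkn1a (111.6 ± 22.7, n = 3) by 0.92 (SE 0.742, edgeR adjusted p-value 0.460). Mesoderm progenitors had means close to 2iJ+B-A for both genes, 107.9 ± 105.1 CPM for Cdkn1a and 94.5 ± 49.8 CPM for Cdkn1b (n = 2), but with an SD that hides opposite steps between the days. With day 4 as the only mesoderm library, the log2 difference of Cdkn1a from 2iJ+B-A was -1.65. This fit leaves out day 3, when Cdkn1a was above all values of 2iJ+B-A, and has no spread within the mesoderm group.

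Genes of the p53 pathway other than Cdkn1a were compared next to it. Of 14 tested, 0 were higher and 2 lower in mesoderm progenitors than in 2iJ+B-A, Trp53inp1 (-0.69, edgeR adjusted p-value 0.0497) and Bax (-0.51, 0.0371), which promotes apoptosis. This is a smaller share than the 27% of all genes called, and with single libraries left out Bax was called in 0 of 5 fits and Trp53inp1 in 1 of 5. The list summed to 1979 (day 3) and 1181 CPM (day 4), and to between 1737 and 2413 CPM elsewhere. In the sorted cells 0 of 14 were called, with a median of 0.12. Unadjusted edgeR p-values were under 0.05 for Mdm2 (1.19), Bbc3 (0.93) and Pmaip1 (2.14), all higher, and for Trp53 (-0.97), lower. The same held for 4586 of all 16961 genes.

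A list of 3 further CDK inhibitors was followed. Cdkn2c, which encodes the INK4 protein p18, was at 13.9 CPM in the sorted cells and between 1.46 and 2.08 CPM in the other 7 libraries. It was higher than in 2iJ+B-A by 3.02 on the log2 scale (SE 0.459, edgeR adjusted p-value 0.0277), but the adjusted p-value reached 0.134 with a library of 2iJ+B-A left out. Over the 5 fits that left out a library the log2 difference lay between 2.91 and 3.16. Cdkn1c, an imprinted gene that encodes p57, was at 8.31 CPM in 2i and 19.96 CPM in 2iJ, and at 127.1, 343.1 and 93.6 CPM in 2iJ+B-A. Its 3 values in 2iJ+B-A were above both others, where 43.5% of all genes did not overlap in either direction. The log2 difference from 2iJ of 3.16 (SE 1.04, unadjusted p-value 0.0215) did not pass in edgeR (adjusted p-value 0.558). Cdkn1c was also above 2i and 2iJ in the sorted cells (50.4 CPM) and in mesoderm progenitors (65.4 CPM on day 3 and 209.0 CPM on day 4). Cdkn1c stood out after its values were seen.

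The INK4 locus on chromosome 4 holds Cdkn2a and Cdkn2b side by side. Cdkn2a (ENSMUSG00000044303; chr4:88920377-88940557, minus strand) gives 2 unrelated proteins from alternative first exons, p16 and p19Arf, and the 3 annotated transcripts share the counts, so that a level of Cdkn2a is the sum of both. It was at 15.2 CPM in 2i, 19.8 CPM in 2iJ, and 14.8, 14.4 and 10.4 CPM in 2iJ+B-A. The sorted cells had 10.2 CPM, and mesoderm progenitors 18.6 and 10.5 CPM. All 3 values of 2iJ+B-A were below 2i and 2iJ, the intervals of 5 of 7 neighbouring pairs overlapped, and 0 of the 4 tests called Cdkn2a (lowest edgeR adjusted p-value 0.671).

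Cdkn2b (ENSMUSG00000073802; chr4:88952198-88956941, minus strand), a known target of TGF-beta signalling, was the least abundant member. It was at 2.03 CPM (1.56 to 2.62) in 2i and 3.58 CPM in 2iJ, and at 2.77, 4.01 and 4.17 CPM in 2iJ+B-A. The sorted cells had 7.37 CPM (6.27 to 8.67). Mesoderm progenitors went from 3.47 CPM on day 3 to 0.678 CPM (0.444 to 1.04) on day 4, which rests on 21 counts. The sorted cells and day 4 of the mesoderm progenitors lay apart from all other libraries, above and below, while the intervals of neighbours among the remaining 6 overlapped. The group tests called Cdkn2b in 0 of 4 cases. With day 4 as the only mesoderm library, its log2 difference from 2iJ+B-A was -2.35. This fit leaves out day 3, when Cdkn2b was within the values of 2iJ+B-A, and has no spread within the mesoderm group.

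The sequence before the start of transcription is shown for 4 members, the 2 inhibitors whose levels ran together over the 8 libraries (Cdkn1a and Cdkn2b), the one that ran against them (Cdkn1b), and Mycn, whose window held the most motif matches. Windows are the 250 bases before a RefSeq start in GRCm38.p6, a later build than that of the counts, and the table held 10 windows for 7 of the 10 genes. Capitals mark matches, on either strand, to the words searched, which were CACGTG (the E-box bound by MYC), TTTGGCGC, TTTCGCGC and TTTCCCGC (E2F), GGGCGG (GC box), GGCGCC (a word bound by SMAD1 and SMAD5), CTTTGAT and CTTTGAA (TCF/LEF), TGACGTCA (the cyclic AMP response element) and TTCNNNGAA (STAT). Cdkn1a (chr17:29093519-29093768, plus strand, the downstream of 2 starts), Cdkn2b (chr4:89311033-89311282, minus strand), Cdkn1b (chr6:134920151-134920400, plus strand) and Mycn (chr12:12941837-12942086, minus strand) read as follows.
Cdkn1a: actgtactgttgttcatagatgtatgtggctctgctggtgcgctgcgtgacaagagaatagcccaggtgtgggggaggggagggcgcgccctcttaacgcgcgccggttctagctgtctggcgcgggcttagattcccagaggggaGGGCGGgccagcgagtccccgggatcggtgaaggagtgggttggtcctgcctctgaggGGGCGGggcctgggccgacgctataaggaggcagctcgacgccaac
Cdkn2b: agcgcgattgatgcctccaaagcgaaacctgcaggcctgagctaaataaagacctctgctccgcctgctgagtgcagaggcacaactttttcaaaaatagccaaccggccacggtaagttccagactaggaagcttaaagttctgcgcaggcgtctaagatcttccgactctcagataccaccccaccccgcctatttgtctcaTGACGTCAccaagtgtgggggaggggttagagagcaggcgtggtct
Cdkn1b: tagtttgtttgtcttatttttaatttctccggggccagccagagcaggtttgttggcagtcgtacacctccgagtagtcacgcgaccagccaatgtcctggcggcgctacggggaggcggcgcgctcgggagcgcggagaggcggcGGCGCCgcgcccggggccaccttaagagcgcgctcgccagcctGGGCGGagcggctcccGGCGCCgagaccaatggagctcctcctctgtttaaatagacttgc
Mycn: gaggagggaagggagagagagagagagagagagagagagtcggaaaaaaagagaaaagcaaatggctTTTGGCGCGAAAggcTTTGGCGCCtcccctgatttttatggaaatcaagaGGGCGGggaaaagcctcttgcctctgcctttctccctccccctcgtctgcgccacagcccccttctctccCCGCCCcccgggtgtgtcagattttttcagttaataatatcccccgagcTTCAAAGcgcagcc

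Cdkn1a and Cdkn2b held no word in common. The Cdkn1a window had 2 GC boxes, a word present in 32.7% of all 32851 windows of this length, and Cdkn2b had the cyclic AMP response element, present in 1.55%. Cdkn1b had 2 matches of GGCGCC (9.59% of windows) and a GC box. Mycn had 3 E2F matches, between 183 and 161 bases before the start, of which 2 overlap each other and the last overlaps GGCGCC. An E2F word was present in 1.53% of windows and a TCF/LEF word, also found in Mycn, in 7.48%. As the Mycn window was picked for its number of matches, these shares do not tell how unusual it is. A window of Cdkn2a, not shown, also held an E2F word and GGCGCC, and the upstream window of Cdkn1a held no match. The E-box (6.02% of windows) and the STAT word (7.02%) had no match in any of the 10 windows of these genes. These matches describe letters and not binding.

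Over the 4 tests as a whole, few of the 10 genes were called. Between mesoderm progenitors and 2iJ+B-A, 6 of 10 were on the higher side, with a median log2 difference of 0.16 against -0.03 for all genes, and 1 was called. Between the sorted cells and 2iJ+B-A, 5.42% of all genes were called and 0 members, although Mycn, Cdkn1b and Ccnd1 had unadjusted p-values under 0.05, as had 4586 of the 16961 genes. The median of the members was -0.83 there against -0.08 for all genes. Between 2iJ+B-A and 2iJ, 0% of genes were called in edgeR, with 1290 under an unadjusted 0.05, 0 of them members, and DESeq2 called 310 genes and 0 members. The interval of the difference from 2iJ was narrowest for Mycn (-0.68 to 0.38) and Ccnd3 (-0.75 to 0.71) and wider than 4 log2 units for Ccnd2 and Cdkn2b.

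**Figure D3:**
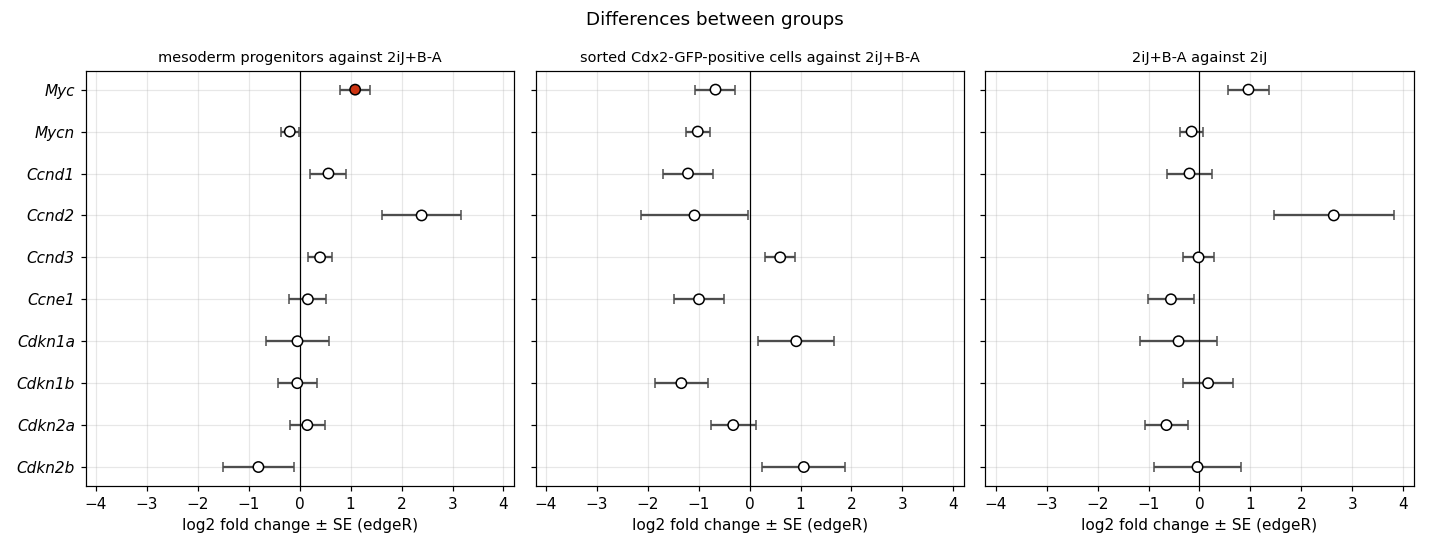
Log2 fold change of each gene (points) with its standard error (bars) in the joint edgeR fit, for mesoderm progenitors (n = 2) and sorted cells (n = 1) against 2iJ+B-A (n = 3), and for 2iJ+B-A against 2iJ (n = 1). The filled point, Myc at 1.09 in mesoderm progenitors, is the one with an adjusted p-value under 0.05, and the bars of Ccnd2 are the widest.

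Values that did not overlap between groups were counted as a second description. Mesoderm progenitors were above all 3 libraries of 2iJ+B-A, and above all 5 unsorted mESC libraries, in Myc, Ccnd1 and Ccnd2, which is 3 of 10 where 57.2% and 48.5% of all genes did not overlap. The sorted library lay outside the 3 values of 2iJ+B-A in 9 of 10 genes, where 75.1% of all genes did, with Ccnd3, Cdkn1a and Cdkn2b above, the other 6 below, and Ccnd2 within. The values of 2iJ+B-A lay apart from those of 2i and 2iJ in 5 of 10 genes, with 43.5% for all genes. Myc and Ccnd2 were above and Ccne1, Cdkn1a and Cdkn2a below.

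Single libraries were also compared with each other as ratios, on which no test was run. Between 2iJ and 2i, which differ by the JAK inhibitor, 0 of 10 genes differed at least 2-fold, where 9.3% of all genes differed by that much, and the largest differences were in Cdkn2b (1.76-fold higher), Mycn (1.34-fold) and Cdkn2a (1.30-fold). From day 3 to day 4 of the mesoderm progenitors, 4 of 10 genes differed at least 2-fold, against 24.6% of all genes. Cdkn1b was 2.19-fold higher (10.5% of genes were higher by 2-fold), while Cdkn1a was 5.41-fold, Cdkn2b 5.01-fold and Ccne1 2.52-fold lower (14% of genes). Of these 4 genes, 3 are inhibitors and 1 is a cyclin. The remaining inhibitor, Cdkn2a, was 1.77-fold lower and Ccnd2 1.58-fold lower, while Ccnd1, Ccnd3, Myc and Mycn differed by less than 1.35-fold. Between sorted and unsorted cells of day 2, 4 of 10 genes differed at least 2-fold, against 36.3% of all genes. Cdkn2b was 2.65-fold and Cdkn1a 2.38-fold higher, and Cdkn1b 3.43-fold and Mycn 2.32-fold lower. Ccnd2 and Ccne1 lay just short of the limit, 1.99-fold higher and 1.99-fold lower.

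**Figure D4:**
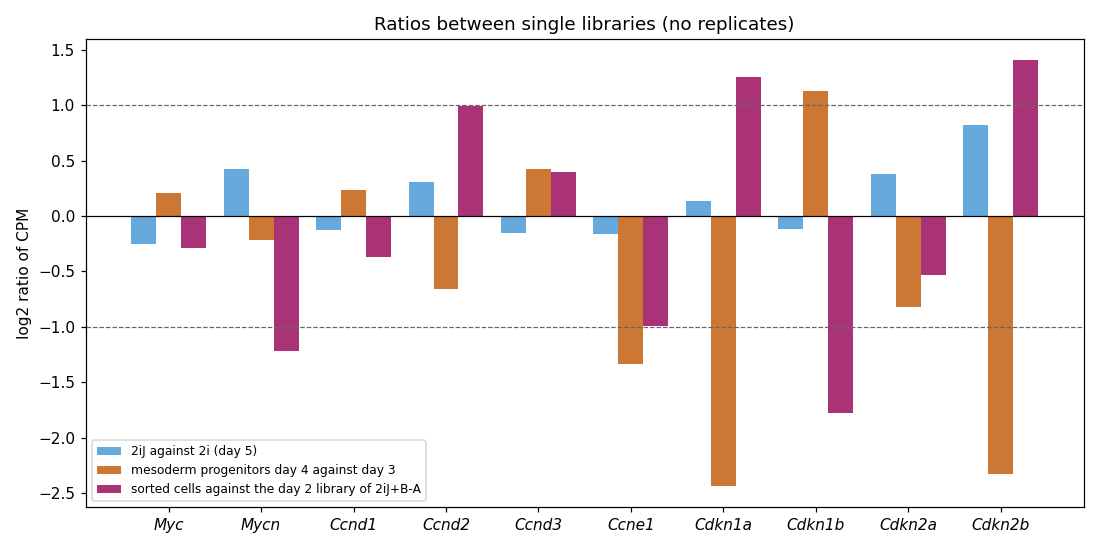
Log2 ratio of CPM of each gene between single libraries, for 2iJ over 2i on day 5, day 4 over day 3 of the mesoderm progenitors, and sorted over unsorted cells of day 2 in 2iJ+B-A. Dashed lines mark 2-fold, and bars have no replicates. In the latter 2 ratios the bars of Myc, Ccnd1, Ccnd2, Cdkn1a, Cdkn1b and Cdkn2b take opposite signs. Those of Mycn, Ccnd3, Ccne1 and Cdkn2a keep the same sign.

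The way the 10 genes moved relative to each other was described by correlation of log2 CPM over the 8 libraries. The closest pairs of the family were Cdkn1a and Cdkn2b (r = 0.90), Myc and Ccnd2 (0.89), and Ccne1 and Cdkn2a (0.86), and the most opposed pair was Cdkn1a and Cdkn1b (-0.80). The points are 8 libraries from 5 groups that differ in line, medium, day and depth, and the pairs were picked as extremes, so that these values describe the libraries. The pair of Cdkn1a and Cdkn2b leans on the sorted cells, where both were highest, and on day 4 of the mesoderm progenitors, where both were lowest.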

How the data were processed

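RNA was measured in 8 mouse libraries. Strand-specific libraries of poly-A RNA were sequenced by the authors as read pairs, which were trimmed (cutadapt) and aligned to NCBIM37 by STAR (2.4.2a in the submitters' processing notes). The deposited files give unnormalized gene counts, in columns for unstranded, forward-strand and reverse-strand counting, and the last of these was used. Rows without a gene (unmapped, multimapping, ambiguous or outside genes) held between 19.9% and 26.1% of pairs, and 54.5% in the sorted library, and were left out. The annotation release used by the authors is not given in the sources used here; GENCODE vM1 named 37205 of 37620 genes. The study's adjustment between days of experiments was not in these counts.

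A joint fit of all 8 libraries was made in edgeR 4.0.16 under R 4.3.3, with TMM scaling (factors 0.966 to 1.04), a filter of 10 or more counts in 2 or more libraries, 1 coefficient per group, 3 residual degrees of freedom (2 with the slope on log2(day)), the quasi-likelihood test and Benjamini-Hochberg adjustment over 16961 genes at 0.05. SE is the log2 fold change over the square root of F, and 95% intervals use the moderated degrees of freedom of the fit. The fitting code was run on simulated counts with less spread than these data (common biological coefficient of variation 0.363). Only large changes were planted, so that run checks the code and not its power here. Days stood as samples of their group, and nothing in the labels says that libraries came from separate cultures. P-values of the group tests measure the spread between days, which in the mesoderm progenitors also carries the inhibitor of Wnt secretion. Those of the slope test measure how far the days of 2iJ+B-A lie from a line, together with that mesoderm difference. Groups of 1 library borrow their spread from the mesoderm progenitors and 2iJ+B-A. CPM is the share of reverse-strand gene counts without TMM, with 95% Wilson intervals for counting error only, and ratios of single libraries had 0.5 counts added. Per kilobase values use the union of annotated exons. Coordinates are 1-based.

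The members and gene lists were chosen with earlier results of these data known. All 10 members are named, and from each list up to 3 called genes with the largest log2 fold change, plus others where a count of calls was small. Alternatives were DESeq2 1.42.0, other scaling, filter, strand and reference choices, and each library left out. Fits without the sorted library were added after the data were seen.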

Additional observations from a re-analysis of the deposited data

How the results depend on the processing

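The number of the 10 genes called was small and moved with single choices. Between mesoderm progenitors and 2iJ+B-A it was 1 (Myc), and 2 (Myc and Ccnd2) without the filter on low counts and against the average of 2i, 2iJ and 2iJ+B-A. It ranged from 0 to 3 when single libraries were left out, with Myc, Cdkn1a and Cdkn2b called without day 3 of the mesoderm progenitors, Ccne1 without day 4, and 0 without day 2 of 2iJ+B-A. For the sorted cells it was 0, but 1 (Mycn) with DESeq2, 2 (Mycn and Ccne1) in a fit of the 2 groups only, and 0 to 2 with single libraries left out. For the slope over days it was 0, but 2 (Ccnd1 and Ccnd2) with DESeq2, and 0 to 2 with single libraries left out. Between 2iJ+B-A and 2iJ it was 0 under every alternative run. Without day 3 or day 4, the mesoderm progenitors are 1 library. The difference between those days is then missing from the error of the fit.

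Log2 differences kept their direction and their side of the threshold in 445 of the alternatives run for single genes, passed it in 19, no longer passed in 3 and changed sign in 23. With single libraries left out, the log2 differences of mesoderm progenitors from 2iJ+B-A that changed sign ranged from -0.59 to 0.72 for Ccne1, -1.65 to 0.76 for Cdkn1a, -0.69 to 0.46 for Cdkn1b and -0.26 to 0.54 for Cdkn2a, with day 3 or day 4 of the mesoderm progenitors at each end. Against the average of the unsorted mESC groups, Ccne1 (-0.27), Cdkn1b (0.021) and Cdkn2a (-0.16) changed sign. Between 2iJ+B-A and 2iJ the ranges were -0.47 to 0.095 for Ccnd1, -0.12 to 0.15 for Ccnd3, -0.096 to 0.29 for Cdkn1b and -0.15 to 0.11 for Cdkn2b. Ccnd3 (0.046) and Cdkn2b (0.028) also changed sign with library size only, and Mycn (0.038) and Cdkn2b (0.31) with 2i and 2iJ pooled. The slopes ranged from -0.45 to 0.59 for Myc, -0.31 to 0.20 for Mycn, -0.26 to 0.11 for Ccne1 and -0.54 to 0.0062 for Cdkn1b. Ccnd2 in the sorted cells was 1.00 when compared at day 2. Apart from those left-out libraries, which remove a sample, the cause was not tested.

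Over all genes, 2019 to 5598 were called for the mesoderm progenitors, 27 to 2730 for the sorted cells, 0 to 310 for 2iJ+B-A against 2iJ and 0 to 469 for the slope. No paired analysis was run, because the labels give no replicate numbers and each day that groups share is a single library in each. Days were unbalanced where 2iJ+B-A (days 2, 5 and 11) was compared with 2iJ (day 5). Cdkn2b, with 21 to 146 counts a library, is the gene most limited by depth.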

Other observations

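For each of the 10 genes, the protein-coding genes with the most similar pattern were looked up among 9280 genes with a mean of at least 10 CPM, by Pearson correlation of log2 CPM over the same 8 libraries (for Cdkn2b, which is itself below that level, among 9281). The libraries come from 5 groups and share their medium, line and depth differences, so these values are a description. Myc was nearest to Vldlr (r = 0.990), 2010321M09Rik (0.982) and Sec24b (0.982), and 193 genes had an r of at least 0.9 with it. Mycn was nearest to Fen1 (0.960), Dhps (0.959) and Rad18 (0.953). Fen1 encodes a nuclease of DNA replication.

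Ccnd1 was nearest to Pdpr (0.986), Prdm15 (0.985) and Herc2 (0.972), and Ccnd2 to Efna4 (0.985), BC016423 (0.982) and Cdh4 (0.977). Ccnd3 had only 4 genes with an r of at least 0.9, led by Rnf8 (0.962), Klf13 (0.924) and Csnk1e (0.916). Ccne1 was nearest to Ppa1 (0.973), Nol10 (0.968) and D19Bwg1357e (0.968).

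Among the inhibitors, Cdkn1a was nearest to Uqcrq (0.979), Tomm40 (0.967) and Manf (0.957), the former 2 with mitochondrial products. Manf was also among the 3 nearest to Cdkn2b (0.954), after Pou6f1 (0.959) and 4933426M11Rik (0.959). Cdkn1b was nearest to Tmem194b (0.960), Pias1 (0.952) and Ing3 (0.945). Cdkn2a had 7 genes with an r of at least 0.9, and the 3 nearest were Psmb7 (0.942), Eif2b2 (0.928) and Psmb6 (0.923), of which Psmb6 and Psmb7 encode subunits of the proteasome core.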
